A study of Mus musculus with 4 samples.

Results

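Potassium channel genes of the mouse kidney were described in 4 RNA libraries, 2 from animals given cisplatin and 2 from animals given saline. The members were the protein-coding rows of the count table whose symbol is Kcn followed by letters and a number, with at least 100 counts summed over the 4 libraries and with Kcnj1 left out. This gave 32 members of 29190 rows. The pattern matched 85 genes, of which 52 besides Kcnj1 were under the minimum. The values that chose the members were these count totals, which ran from 102 (Kcnk2) to 65600 (Kcnj15). Just inside the minimum stood Kcnk2 with 102 counts and Kcna5 with 106, and just outside it Kcnip2 with 96 and Kcna2 with 89. The total is summed over both groups and does not use their difference, but the genes were proposed with results of these libraries in view. A gene can also reach the minimum mainly through the group where it is higher. Kcne1 had 156 and 211 counts after saline and 19 and 30 after cisplatin, and Kcna5 had 13 and 17, then 37 and 39.

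All animals were male C57 mice of 8 weeks, and the tissue was kidney, in 2 biological replicates per group. The cisplatin group received the platinum drug at 30 mg/kg, and the control group received physiological saline by injection. The protocol lists 18 mice in 3 groups killed 24 h or 48 h after the drug, and the sources used here do not say which of these times applies to the cisplatin libraries. They also do not say whether a library holds tissue of 1 mouse or of several, so any spread is between libraries, 2 per group. Standard errors and p-values rest on that spread and also on the variance of other genes, toward which the tests draw each gene.

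Potassium channels are membrane proteins that let potassium leave or enter a cell along its gradient. In tubule cells they set the voltage that drives salt and solute uptake, return potassium brought in by the sodium pump to the blood side, and secrete potassium into urine. Pore subunits fall into inward rectifiers (Kcnj), tandem pore domain or leak channels (Kcnk), voltage-gated channels (Kcna to Kcnd, Kcnh, Kcnq) and channels opened by calcium or sodium (Kcnma, Kcnn, Kcnt). Silent subunits (Kcnf, Kcns) and auxiliary subunits (Kcnab, Kcne, Kcnip, Kcnmb) do not conduct alone and change the pores they join.

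Library totals ranged from 20662475 to 27122403 counts. Channel members made up 0.0838 and 0.0814% of all counts after cisplatin, against 0.23 and 0.239% after saline. Abundances are given as TMM-scaled CPM (counts scaled to a common library total), a unit that corrects for depth and for a shift in composition but not for gene length. Among markers of nephron segments, the summed level of 10 proximal tubule genes was 2738 to 2761 CPM in the cisplatin libraries and 17140 to 17310 CPM in the saline libraries, and all 10 fell. Of 7 thick limb markers 6 fell and 1 rose, of 6 distal and connecting tubule markers 5 fell, of 6 principal cell markers 4 fell and 2 rose, and of 7 intercalated cell markers 5 fell and 1 rose. All 6 podocyte and all 6 neutrophil markers rose, while of 8 endothelial markers 5 rose and 2 fell, and of 3 tested nerve and glia markers 1 rose and 2 fell. The part of these cells in the values of the channel genes was not tested. In whole tissue, fewer cells of a type and less RNA per cell cannot be told apart, and this holds for every value that follows.

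Channel transcripts changed in both directions after cisplatin, with the 3 most abundant ones lower. All 32 members passed the filter on low counts and were tested, and no member had under 13 counts in any library. With edgeR's quasi-likelihood test and a threshold of 0.05 on the Benjamini-Hochberg adjusted p over 17419 genes, 10 members rose, 14 fell and 8 did not pass. The share called, 75% of the members, was close to the 73.6% called among all tested genes. By direction, 37.2% of all tested genes rose and 36.4% fell. The libraries of the groups did not overlap in 28 members, or 87.5%, against 86.3% of all tested genes. A change of at least 2-fold was called in 15 members, 5 of them higher and 10 lower, and in 35.3% of all tested genes. The median log2 fold change (cisplatin over saline) was -0.39 over the members and 0.04 over all tested genes. With library size as the only scaling these medians were -0.03 and 0.41, and 13 members rose and 10 fell.

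**Figure D1:**
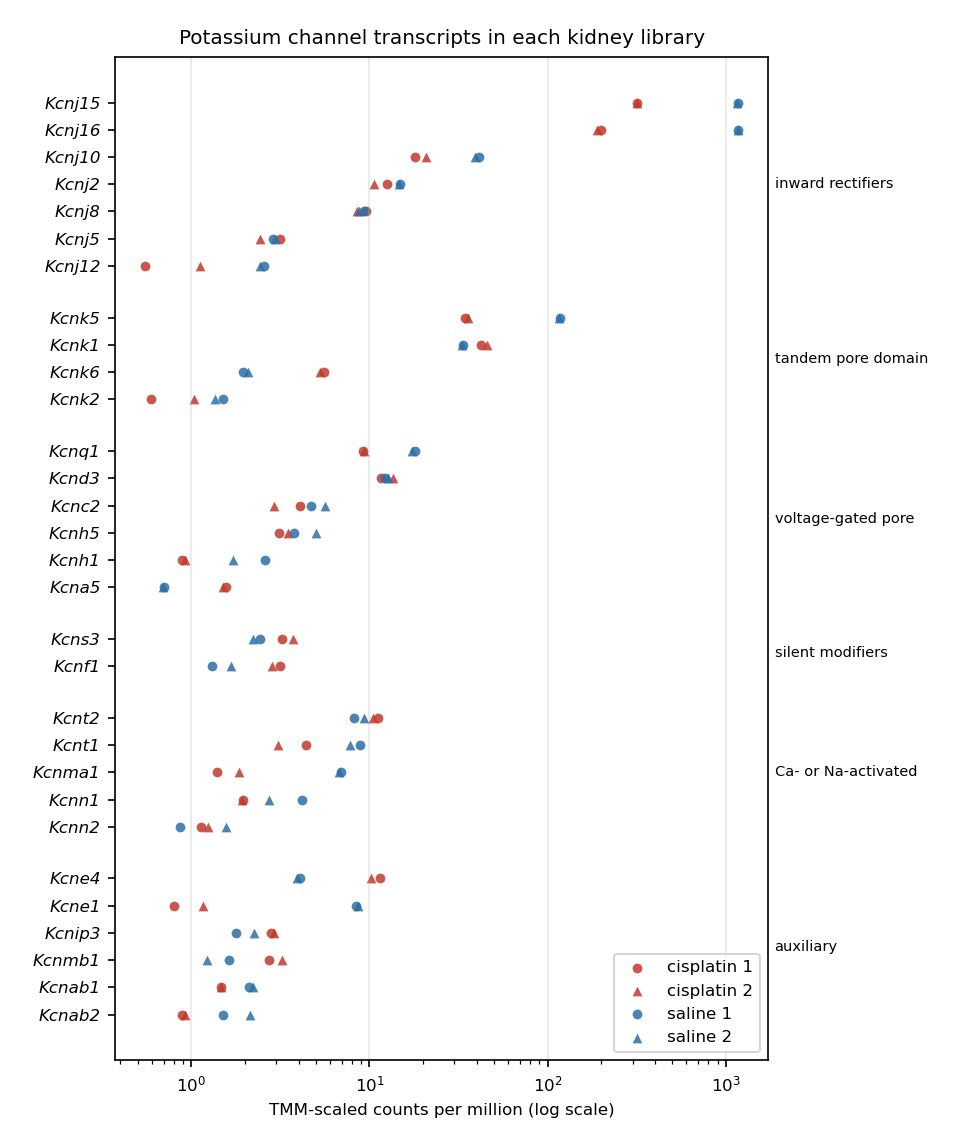
TMM-scaled CPM of 30 of the 32 members in each library, on a log axis, grouped by subunit role (circles replicate 1, triangles replicate 2, red cisplatin, blue saline). Kcnj15 and Kcnj16 stand at 1156 to 1177 CPM in the saline libraries, far to the right of the other members, and at 190 to 318 CPM in the cisplatin libraries.

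The inward rectifiers held most of the signal, and none of them rose. Of 7 members 5 fell and 2 did not pass, beside 36.4% lower and 37.2% higher among all tested genes. The log2 fold changes of these members had a median of -1.05. Kcnj16 (ENSMUSG00000051497.13, chromosome 11, 110968033 to 111027968, plus strand, GRCm38) encodes Kir5.1, a subunit that conducts in heteromers with Kir4.1 or Kir4.2 on the blood side of tubule cells. It stood at 1173 and 1177 CPM in the saline libraries and at 199 and 190 CPM in the cisplatin libraries. The groups lay far apart and the fall was 2.60 on the log2 scale (SE 0.06; edgeR quasi-likelihood, adjusted p = 2.84e-18). Kcnj15 (ENSMUSG00000062609.11, chromosome 16, 95257558 to 95300260, plus strand) encodes Kir4.2, a proximal tubule subunit. Its saline libraries were at 1170 and 1156 CPM and its cisplatin libraries at 318 and 318 CPM, a log2 fold change of -1.87 (SE 0.06). Both saline levels were alike in CPM, and the replicates of each group differed by far less than the groups.

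Kcnj10 (ENSMUSG00000044708.5, chromosome 1, 172341210 to 172374085, plus strand) encodes Kir4.1, the partner of Kir5.1 in the distal convoluted tubule. It had 41.2 and 39.0 CPM after saline and 17.97 and 20.79 CPM after cisplatin, without overlap (log2 fold change -1.05, SE 0.09). Kcnj12 encodes Kir2.2, a strong rectifier, and had 2.54 and 2.42 CPM after saline against 0.548 and 1.12 CPM after cisplatin. Its log2 fold change of -1.55 (SE 0.33) went to -2.16 without cisplatin replicate 2, the higher of that pair, and its call was lost with limma-trend on log2 of FPKM plus 0.1 (adjusted p = 0.0691).

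Kcnj2 encodes Kir2.1, which holds the resting voltage of muscle, vessel and immune cells. It stood at 14.9 and 14.6 CPM after saline and 12.6 and 10.6 CPM after cisplatin, and was called lower at -0.35 (SE 0.12). With library size alone its log2 fold change was 0.02, and without cisplatin replicate 2 it was -0.23 (edgeR quasi-likelihood, adjusted p = 0.141), so neither its direction nor its call held. Upper-quartile scaling, DESeq2 and limma-trend on FPKM also ended the call. Kcnj8 encodes Kir6.1, the pore of vascular ATP-sensitive channels. Its libraries overlapped, at 9.31 and 8.69 CPM after saline and 9.62 and 8.52 CPM after cisplatin (log2 fold change 0.01, SE 0.14). Kcnj5, a G-protein-gated subunit, also overlapped, at 2.87 and 2.95 against 3.16 and 2.43 CPM. With library size alone Kcnj8 passed as higher, at 0.38. In these libraries 7 of 9 smooth muscle and mural cell markers rose, with a summed level of 655 to 672 CPM after cisplatin and 375 to 381 CPM after saline, and their part in the Kcnj8 and Kcnj2 values was not tested.

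Kcnj2 is the next member along chromosome 11 from Kcnj16, 38195 bases away with no protein-coding gene between them, yet one fell by 2.60 and the other by 0.35 on the log2 scale. A test of that difference was not run. The start regions of this pair are shown with those of Kcnj15 and of Kcnk5, a leak channel gene that fell as Kcnj15 did, because they range from few to many CG dinucleotides. Each sequence is the RefSeq region of GRCm38.p6 from 250 bases before to 50 after a start, 5′ to 3′ on the gene's strand, with CG in capitals. They lie at chr11:110967783-110968082 (plus strand, the first of 4 listed Kcnj16 starts), chr11:111065914-111066213 (plus), chr16:95257308-95257607 (plus) and chr14:20181733-20182032 (minus).
Kcnj16: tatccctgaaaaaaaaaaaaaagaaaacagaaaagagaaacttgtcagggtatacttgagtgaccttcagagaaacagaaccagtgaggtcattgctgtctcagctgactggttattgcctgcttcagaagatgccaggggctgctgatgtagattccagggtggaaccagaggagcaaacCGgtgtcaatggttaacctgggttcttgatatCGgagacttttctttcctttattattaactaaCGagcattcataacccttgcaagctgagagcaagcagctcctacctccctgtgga
Kcnj2: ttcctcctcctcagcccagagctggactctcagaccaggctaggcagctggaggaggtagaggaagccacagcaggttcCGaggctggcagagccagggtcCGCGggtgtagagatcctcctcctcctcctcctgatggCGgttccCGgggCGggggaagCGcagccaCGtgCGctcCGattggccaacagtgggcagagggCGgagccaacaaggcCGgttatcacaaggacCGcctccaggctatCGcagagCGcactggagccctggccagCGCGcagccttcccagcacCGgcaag
Kcnj15: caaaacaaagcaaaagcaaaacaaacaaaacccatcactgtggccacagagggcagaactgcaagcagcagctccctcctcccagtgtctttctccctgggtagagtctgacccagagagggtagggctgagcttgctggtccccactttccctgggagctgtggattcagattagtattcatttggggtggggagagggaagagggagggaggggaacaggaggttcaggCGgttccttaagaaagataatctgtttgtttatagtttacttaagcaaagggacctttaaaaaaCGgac
Kcnk5: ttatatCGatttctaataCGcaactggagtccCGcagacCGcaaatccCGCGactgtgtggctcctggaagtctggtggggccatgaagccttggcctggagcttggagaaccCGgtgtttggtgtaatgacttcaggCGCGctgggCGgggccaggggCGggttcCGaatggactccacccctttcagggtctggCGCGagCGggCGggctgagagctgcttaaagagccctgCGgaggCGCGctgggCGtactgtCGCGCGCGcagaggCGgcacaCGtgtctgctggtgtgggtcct
Kcnj16 holds 3 CG in this window and Kcnj15 holds 2, whereas Kcnj2 holds 18 and Kcnk5 holds 26. The other 3 starts of Kcnj16 hold 1, 5 and 8. Over all 32851 RefSeq promoters of this length the median is 7, and 16.9% hold as many as Kcnk5 or more. RefSeq starts were matched for 25 members. In the richest start of each gene, members that fell (n = 11) had a median of 18 CG (2 to 36) and members that rose (n = 7) a median of 9 (1 to 32). Members that did not pass (n = 7) had a median of 17 (7 to 33), and no difference was tested. CG content thus ranged widely within both directions. The motif TATAAA, sought on both strands, is in 3 of the 42 member starts, those of Kcnj15, Kcnab1 and the third of Kcnj16 along the chromosome, and in 13.6% of all promoters.

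The tandem pore domain genes split, with Kcnk5 lower and Kcnk1 and Kcnk6 higher. Kcnk5 (ENSMUSG00000023243.8, chromosome 14, 20140057 to 20181809, minus strand) encodes TASK-2, an alkali-activated leak channel of the proximal tubule linked to bicarbonate uptake. It had 117 and 115 CPM after saline and 34.4 and 35.8 CPM after cisplatin (log2 fold change -1.73, SE 0.06; edgeR quasi-likelihood, adjusted p = 9.56e-16). Kcnk1 (ENSMUSG00000033998.8, chromosome 8, 125995170 to 126030685, plus strand) encodes TWIK-1, a weak leak channel found in several tubule segments. It rose from 33.6 and 33.1 CPM to 42.4 and 45.8 CPM, a log2 fold change of 0.40 (SE 0.08), and all 14 alternatives called it higher, at 0.35 to 0.77. Kcnk6, which encodes the related TWIK-2, had 1.95 and 2.09 CPM after saline and 5.53 and 5.24 CPM after cisplatin (1.41, SE 0.21). Both of these pairs were clear of each other. Kcnk2, the stretch-sensitive channel TREK-1, had 1.51 and 1.35 against 0.590 and 1.04 CPM and did not pass (edgeR quasi-likelihood, adjusted p = 0.0592). It passed as lower without cisplatin replicate 2, at -1.27, and with no filter, at -0.80.

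**Figure D2:**
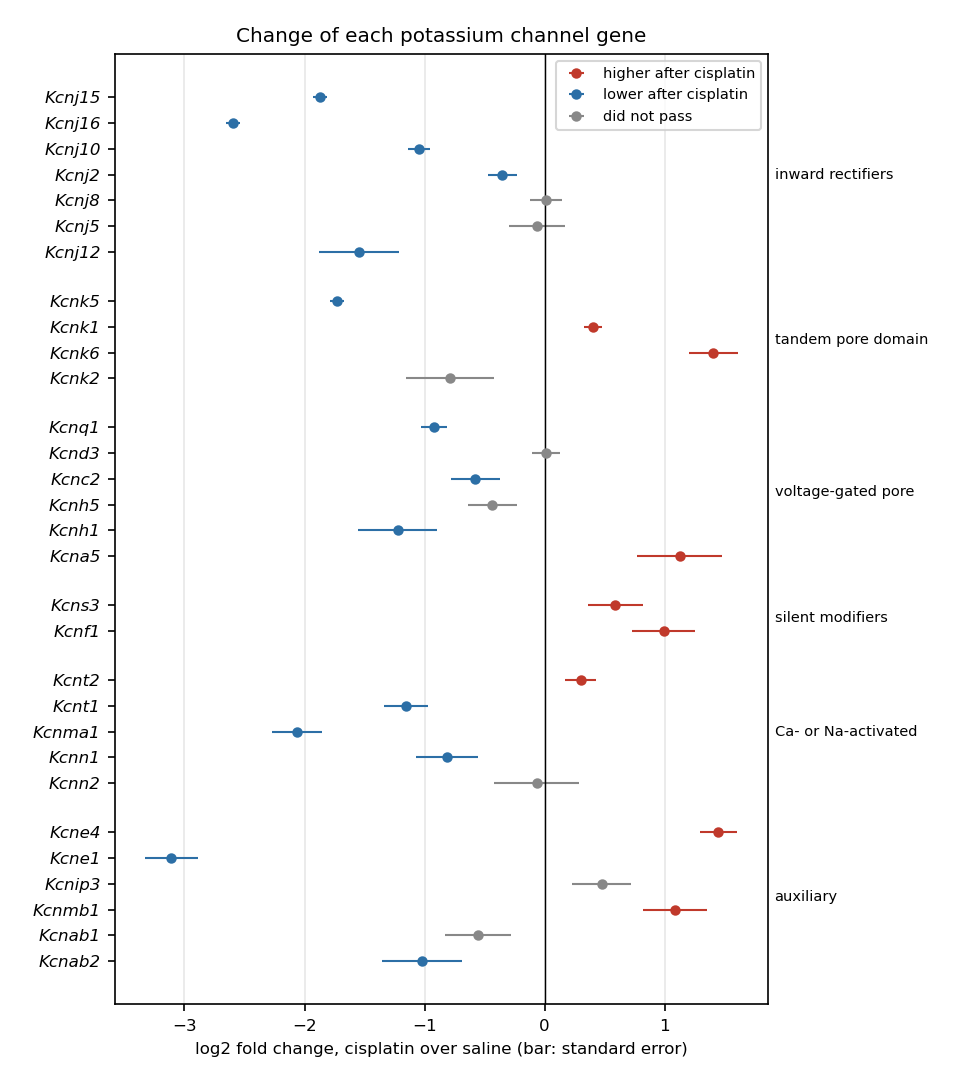
Log2 fold change of 30 of the 32 members, cisplatin over saline, with its standard error (bars), grouped by subunit role and coloured by the call of edgeR's quasi-likelihood test. Inward rectifiers lie at or left of 0, from -2.60 (Kcnj16) to 0.01 (Kcnj8), while the other roles have members on both sides except the 2 silent subunits, both higher.

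Voltage-gated pore genes were less abundant and changed both ways, with 3 of 8 higher, 3 lower and 2 not passing. Among all tested genes 37.2% were higher and 36.4% lower. Kcnq1, whose channel repolarises heart muscle and sets voltage in the proximal tubule and other epithelia, had 17.97 and 17.29 CPM after saline and 9.24 and 9.37 CPM after cisplatin (log2 fold change -0.92, SE 0.11). The antisense RNA gene Kcnq1ot1 lies across it on the opposite strand, shares 121 exonic bases with it, and had 3052 and 4008 counts after saline and 4699 and 5096 after cisplatin. Kcnq1 itself had 332 and 422, then 219 and 243 counts. Since the use of strand in counting is not given, reads of the shared stretch cannot be assigned. This limit is not particular to Kcnq1. Other members also share exonic bases with genes on the opposite strand, among them Kcnma1 (1016 with 4930519K11Rik), Kcnj15 (333 with Gm49643) and Kcnk1 (179 with Gm45875). These 3 overlapping genes have no counts here. Kcnd3, which encodes the transient current channel Kv4.3, overlapped between groups at 12.2 and 12.8 against 11.6 and 13.6 CPM (0.01, SE 0.12). With library size alone it passed as higher, at 0.37.

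Kcna5, the delayed rectifier Kv1.5 of heart and vessel muscle, had 0.704 and 0.697 CPM after saline and 1.56 and 1.50 CPM after cisplatin. It was called higher at 1.12 (SE 0.35), but not without cisplatin replicate 1 (edgeR quasi-likelihood, adjusted p = 0.0577) or with DESeq2 (adjusted p = 0.12). Its groups did not overlap.

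Both members of the ether-a-go-go family went down, but only Kcnh1 passed, and the difference between them was not tested. Kcnh1 had 2.60 and 1.72 CPM after saline and 0.886 and 0.925 CPM after cisplatin, and fell by 1.23 on the log2 scale (SE 0.33), a call lost with limma-trend on log2 of FPKM plus 0.1 or 1 (adjusted p = 0.15 and 0.117). Kcnh5 had 3.79 and 5.04 against 3.12 and 3.47 CPM and did not pass (edgeR quasi-likelihood, adjusted p = 0.0644), although it passed as lower without saline replicate 1, at -0.62. Kcnc2, a fast-gating channel gene, was called lower at -0.58, but not without cisplatin replicate 2 (-0.34) or saline replicate 2 (-0.44), with library size alone, with DESeq2 or on FPKM. Both silent subunits, which form no channel of their own and modify other voltage-gated pores, rose. Kcnf1 had 1.30 and 1.68 CPM after saline and 3.16 and 2.85 CPM after cisplatin (0.99, SE 0.26). Kcns3 had 2.43 and 2.21 against 3.25 and 3.70 CPM (0.59, SE 0.23), and its call was lost without cisplatin replicate 2 or saline replicate 2 and with DESeq2.

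Of the 5 genes for calcium- or sodium-activated channels 3 fell, 1 rose and 1 did not pass, beside 36.4% lower and 37.2% higher among all tested genes. Kcnma1 encodes the pore of the BK channel, opened by calcium and voltage, which secretes potassium in the distal nephron when flow is high. It had 6.93 and 6.72 CPM after saline and 1.39 and 1.85 CPM after cisplatin, with a wide gap between the groups (log2 fold change -2.06, SE 0.21; edgeR quasi-likelihood, adjusted p = 3.2e-08). The sodium-activated channel genes Kcnt1 and Kcnt2 moved apart. Kcnt1 fell from 8.87 and 7.79 CPM to 4.43 and 3.05 CPM (-1.16, SE 0.19), a call lost with limma-trend on log2 of FPKM plus 0.1 or 1 (adjusted p = 0.0753 and 0.0523). Kcnt2 had 8.17 and 9.30 CPM after saline and 11.2 and 10.5 CPM after cisplatin, called higher at 0.30 (SE 0.13; edgeR quasi-likelihood, adjusted p = 0.045). The call of Kcnt2 was lost under 9 of 14 alternatives, including the omission of cisplatin replicate 1, cisplatin replicate 2 or saline replicate 1 and the replicate block (edgeR quasi-likelihood, adjusted p = 0.0546). The difference between Kcnt1 and Kcnt2 was not tested. The small-conductance gene Kcnn1 was called lower at -0.81, but not without saline replicate 1 (-0.52), with library size alone, with DESeq2 or on FPKM, and Kcnn2 overlapped between groups at 0.866 and 1.56 against 1.14 and 1.23 CPM.

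Among the auxiliary subunits, members of the same family went opposite ways. Kcne1 (ENSMUSG00000039639.6, chromosome 16, 92345982 to 92359468, minus strand) encodes minK, which slows and enlarges the current of Kcnq1. It had 8.44 and 8.65 CPM after saline and 0.801 and 1.16 CPM after cisplatin, from 156 and 211 counts down to 19 and 30. Its change of -3.11 on the log2 scale (SE 0.22; edgeR quasi-likelihood, adjusted p = 1.3e-10) was the lowest of the 32 members, also with upper-quartile scaling and with library size alone, but not on log2 of FPKM plus 1 (-1.06, beside -2.29 for Kcnj16). Kcne4 (ENSMUSG00000047330.8, chromosome 1, 78816758 to 78820028, plus strand), which inhibits Kcnq1 and some Kv1 channels, had 4.06 and 3.89 CPM after saline and 11.4 and 10.3 CPM after cisplatin. Its change of 1.45 on the log2 scale (SE 0.15; edgeR quasi-likelihood, adjusted p = 5.77e-08) lay within the error of that of Kcnk6 (1.41), and without saline replicate 2 Kcnk6 was the higher (1.46 against 1.41).

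Kcnmb1, the smooth muscle beta subunit that raises the calcium sensitivity of BK channels, rose from 1.62 and 1.23 CPM to 2.74 and 3.24 CPM (log2 fold change 1.09, SE 0.27). The smooth muscle genes Acta2 and Tagln rose in the same libraries by 1.02 and 1.66, while Myh11 stood at -0.03 and did not pass. The part of such cells in the Kcnmb1 and Kcna5 values was not tested. Kcnab2, a Kv beta subunit, was called lower at -1.02, and leaving out either cisplatin library or saline replicate 2 ended that call, as did library size alone, DESeq2 and FPKM. The related Kcnab1 had 2.11 and 2.21 against 1.48 and 1.46 CPM without overlap, and Kcnip3, a calcium-binding subunit of Kv4 channels, had 1.79 and 2.25 against 2.78 and 2.89 CPM. Neither passed (edgeR quasi-likelihood, adjusted p = 0.0752 and 0.0886), although Kcnip3 passed as higher with upper-quartile scaling (0.59) and with library size alone (0.84).

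Levels of different genes can be set side by side only per length, and for this the authors' FPKM values (fragments per kilobase of transcript, scaled to mapped fragments) were used, with no test. In the saline libraries Kcnj16 led at 163 and 180 FPKM, followed by Kcnj15 at 104 and 113, Kcnk5 at 19.1 and 20.6, Kcnk1 at 7.99 and 8.67, Kcnj10 at 4.17 and 4.35 and Kcnq1 at 3.25 and 3.44. Each of these 6 stood above the next without overlap. Kcnj15 and Kcnj16 together made up 84.4 and 84.6% of the summed member FPKM after saline, but 62.2 and 60.9% after cisplatin. The sum over members was 316 and 346 FPKM after saline and 115 and 112 FPKM after cisplatin. Without that pair the remaining 30 members summed to 49.4 and 53.3 FPKM after saline and 43.3 and 43.9 FPKM after cisplatin. FPKM carries no correction for a shift in composition, so these sums fall by less than TMM-scaled CPM does. In that unit all 32 members summed to 2669 and 2653 after saline and 730 and 726.5 after cisplatin. The sum without the pair was not taken in that unit, but sums by role were. Tandem pore domain genes summed to 154.5 and 151.8 CPM after saline and 82.96 and 87.84 CPM after cisplatin. Voltage-gated pores summed to 48.17 and 48.06, then 39.52 and 42.8 CPM, and calcium- or sodium-activated channels to 29 and 28.11, then 20.08 and 18.51 CPM. Auxiliary subunits were at 19.53 and 20.37, then 20.12 and 19.94 CPM. Silent subunits rose from 3.734 and 3.893 to 6.41 and 6.556 CPM.

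The order of levels differed after cisplatin. Kcnj15, at 36.0 and 35.4 FPKM, stood just above Kcnj16, at 35.3 and 33.1 FPKM, and the gap between them was smaller than the spread of Kcnj16. Kcnk1 (12.9 and 13.7 FPKM) stood above Kcnk5 (7.15 and 7.31 FPKM), the reverse of their order after saline. Kcnj8 (3.07 and 2.67) and Kcne4 (3.01 and 2.65) came next and could not be ordered. Both were above Kcnj10 (2.32 and 2.64), but Kcne4 only barely, at 2.65 against 2.64. Kcne4 had ranked 11 of 32 by mean FPKM in the saline libraries, where it was not clear of Kcnd3 or Kcnt2, and ranked 6 after cisplatin. Kcne1 ranked 9 after saline, at 1.45 and 1.63 FPKM, with Kcnj2 overlapping it, and stood at 0.18 and 0.25 FPKM after cisplatin.

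**Figure D3:**
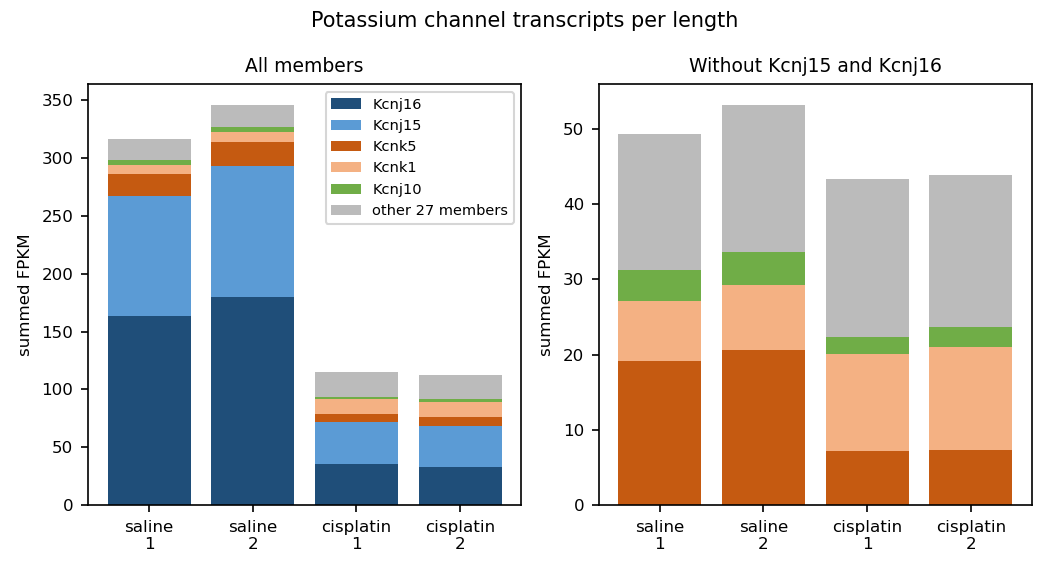
Summed FPKM of the 32 members in each library (left) and without Kcnj15 and Kcnj16 (right), with the 5 most abundant genes after saline in colour and the other 27 members in grey. The sum is 316 and 346 after saline and 115 and 112 after cisplatin, while without that pair it is 49.4 and 53.3 against 43.3 and 43.9. FPKM is not corrected for a shift in composition.

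Within a library the share of a gene in the counts of a pair needs no scaling between libraries. It was taken for 5 pairs whose proteins share a channel, chosen after the values were seen. Counts are not corrected for gene length, so the shares are not proportions of subunits, and only their change between groups is read. An exact test on 2 against 2 libraries cannot give a two-sided p below 0.333, so each share is given with its exact Clopper-Pearson 95% interval, which covers counting error only. Kcnj10 made up 3.39% (3.16 to 3.64) and 3.21% (3.01 to 3.42) of the counts of Kcnj10 and Kcnj16 after saline, and 8.28% (7.54 to 9.07) and 9.88% (9.1 to 10.7) after cisplatin. Kcnj15 made up 49.9 and 49.5% of the counts of Kcnj15 and Kcnj16 after saline and 61.5 and 62.6% after cisplatin. In whole-kidney counts Kcnj16, the subunit shared by both heteromers, was thus lower relative to Kcnj10 and to Kcnj15 in the cisplatin libraries. These counts pool tubule segments, and whether either ratio changed within any cell was not tested.

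Kcne1 was 32% (27.8 to 36.3) and 33.3% (29.7 to 37.2) of the counts of Kcne1 and Kcnq1 after saline, and 7.98% (4.87 to 12.2) and 11% (7.54 to 15.3) after cisplatin. For the BK channel, Kcnmb1 was 19.0% (13.2 to 26.0) and 15.5% (10.7 to 21.3) of the counts of Kcnmb1 and Kcnma1 after saline, against 66.3% (56.1 to 75.6) and 63.6% (54.8 to 71.8) after cisplatin. The fifth pair sets Kcnj8 beside Abcc9, which encodes the SUR2 subunit of ATP-sensitive channels and is no member. Abcc9 fell from 36.4 and 37.8 CPM to 21.3 and 23.2 CPM, and the share of Kcnj8 was 20.4 and 18.7% after saline and 31.1 and 26.9% after cisplatin. In all 5 pairs the shares of the groups did not overlap, but the pairs were chosen with these values known. Shares were not taken for pairs of other genes. The 86.3% of tested genes without overlap is for single genes in TMM-scaled CPM, which is another measure.

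**Figure D4:**
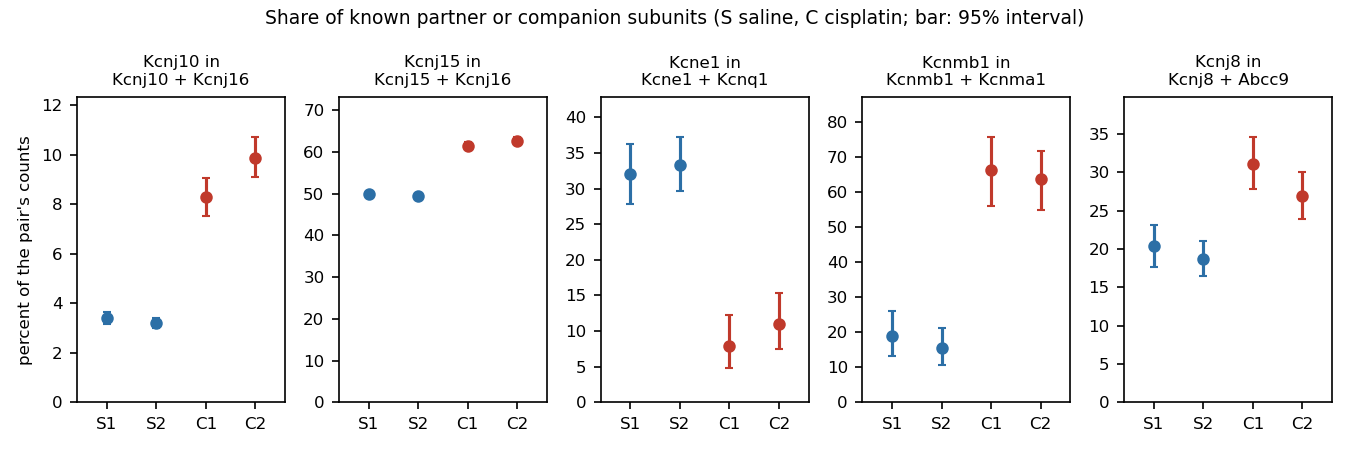
Counts of the first gene as a percentage of both genes of a pair, in saline (S1, S2, blue) and cisplatin libraries (C1, C2, red), with exact 95% counting intervals. Counts are not corrected for gene length. Kcnmb1 goes from 19.0 and 15.5% to 66.3 and 63.6% and Kcne1 from 32 and 33.3% to 7.98 and 11%, and the intervals of the groups do not meet in any panel.

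Other genes of potassium handling were mostly lower. Of 39 listed genes (exchangers, pumps, cotransporters, kinases and channel partners, with Kcnj1 among them) 30 were tested, of which 23 fell, 4 rose and 3 did not pass. Their median was -0.89 on the log2 scale, beside 0.04 for all tested genes. Of all tested genes 36.4% fell and 37.2% rose. Kcnj1, which encodes the secretory channel ROMK, had 293 and 298 CPM after saline and 106 and 103 CPM after cisplatin. The lowest changes were those of Lrrc52, a BK-family gamma subunit (-3.42), Atp4a, the gastric-type proton-potassium pump (-3.12), and Klhl3, the ubiquitin ligase adaptor that degrades WNK kinases (-2.49). Lrrc52 rested on 1.25 and 1.43 CPM after saline and 0.0844 and 0.154 CPM after cisplatin. The highest were those of the potassium-chloride cotransporters Slc12a4 (2.11) and Slc12a5 (1.09), and of the aldosterone-induced kinase Sgk1 (1.33). Sgk1 stood at 75.0 and 81.7 CPM after saline and at 197 and 198 CPM after cisplatin. Abcc8 and Lrrc26 were not tested, with at most 0.169 CPM in any library.

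The scale moved every value together. Over all tested genes the median log2 fold change came to 0.04 under TMM, 0.16 under upper-quartile factors and 0.41 under library size alone. Among the 24 called members Kcnj2 alone changed sign between these 3 scalings.

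**Figure D5:**
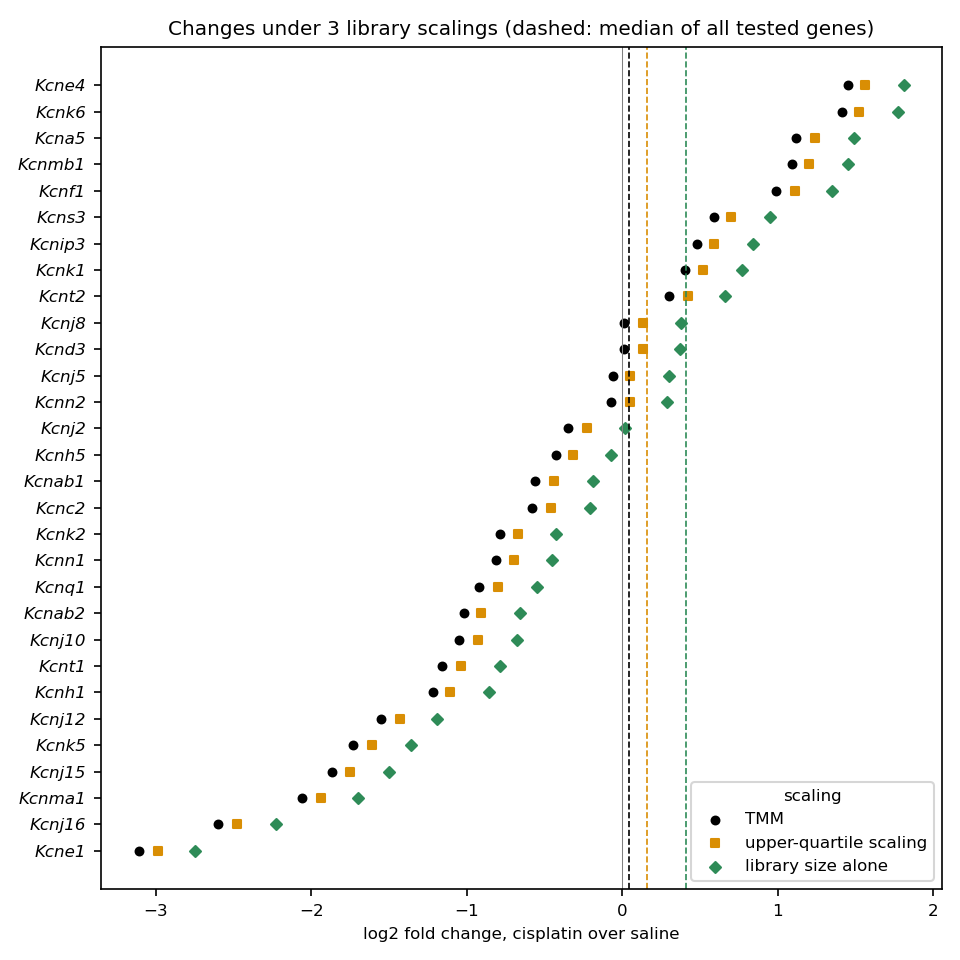
Log2 fold change of 30 of the 32 members, cisplatin over saline, under TMM (black), upper-quartile scaling (orange) and library size alone (green), with the median of all tested genes under each as a dashed line (0.04, 0.16 and 0.41). Kcne1 is lowest under all 3, and the members shift to the right by about as much as the median.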

How the data were processed

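Tests used the raw read counts that the authors deposited for 29190 genes. The authors' FPKM values, deposited for nearly the same genes, served for levels per length and as an alternative. Libraries were ribosomal RNA depleted, directional and sequenced as paired reads of 150 nt, per the labels' protocols. Per the submitters' processing notes, the build was GRCm38 and the tools include TopHat2, bcl2fastq and edgeR, with no versions. The sources used here do not give the program that counted reads, whether it used strand, the gene lengths behind FPKM or the annotation.

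Counts of all genes were fitted with edgeR 4.0.16 (R 4.3.3): filterByExpr, TMM, quasi-likelihood F test of cisplatin against saline over 4 libraries with 2 residual degrees of freedom, and Benjamini-Hochberg adjustment over all 17419 genes tested. The cisplatin libraries had TMM factors of 1.15 and 1.12, the saline libraries 0.861 and 0.901. Standard errors are the log2 fold change divided by the root of F. The fit draws the dispersion of each gene toward that of other genes, so p-values do not rest on 2 residual degrees of freedom alone. A floor of 3 counts was 0.111 to 0.145 CPM. Replicates differed by more than sampling noise (chi-square over degrees of freedom 11.5 for cisplatin, 36.6 for saline), and the biological coefficient of variation was 6.42%. Whether equal replicate numbers pair libraries is not stated.

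The members and lists were chosen with earlier results of these data known. Values are given in full for members averaging 5 CPM or more, the 8 called members with the highest and the 8 with the lowest fold change, and members of at least 1 CPM that did not pass. By name, 2 members are not reported here, though they are in every count, sum and median. Alternatives were other scalings and filters, DESeq2 1.42.0, limma-trend (limma 3.58.1) on log2 of FPKM plus 0.1 or 1, a replicate block, each library left out, and protein-coding rows alone. Coordinates came from GENCODE M21, matched for 32 of 32 members by identifier without version, and start regions from RefSeq. Python 3.11.15 with scipy 1.17.1 gave the intervals and matplotlib 3.10.9 the plots. On simulated counts for this comparison (17012 genes) the edgeR step called 45 of 49 genes changed by 1 on the log2 scale in the right direction, 27 of 48 changed by 0.5, and 7 unchanged genes. Few genes were changed there and all had a common dispersion, so these rates are a check of the step and not those of the data.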

Additional observations from a re-analysis of the deposited data

How the results depend on the processing

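The numbers of members called higher (10) and lower (14) stayed within 1.5 times under the other scalings and filters and with protein-coding rows alone. DESeq2 called 6 higher and 10 lower, and limma-trend on FPKM called 8 higher and 7 lower with a pseudocount of 0.1 and 9 and 8 with a pseudocount of 1. The cause was not tested. Leaving out a library gave 7 to 9 higher and 12 to 14 lower. The median log2 fold change of the members, -0.39, was -0.28 under upper-quartile factors, -0.03 under library size alone, -0.10 and -0.05 with FPKM at the respective pseudocounts, and -0.46 to -0.29 with a library left out. With a membership minimum of 50 or 200 counts it was -0.20 or -0.06. Among single members the sign of a call changed for Kcnj2 with library size alone (0.02), and 16 of the 32 kept their side of the threshold in all 14 alternatives, of which Kcnj5 and Kcnn2, which did not pass, changed sign. Of the other potassium handling genes DESeq2 called 2 higher rather than 4. Over all genes, library size alone called 4207 lower, and limma-trend on FPKM 3804 and 3784, rather than 6333. With the replicate number as a block 9 members were called higher and 14 lower, and 3 of the other potassium handling genes higher and 23 lower. Deviations of same-numbered libraries correlated at -0.0213 across genes, so the block tested only a shared number. Having 2 libraries a group limits the precision, by how much was not tested, since other numbers of libraries were not simulated. In simulated counts 27 of 48 genes changed by 0.5 on the log2 scale were called, over all levels of expression. That simulation changed few genes and gave all genes a common dispersion, whereas 73.6% of genes were called in these data. Its rates therefore do not carry over to them.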

Other observations

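Of the 52 matching genes under the minimum of 100 counts, 15 passed the filter on low counts. By edgeR's quasi-likelihood test 2 of these rose, 4 fell and 9 did not pass, beside 37.2% higher and 36.4% lower among all tested genes. The filter can keep such a gene through 1 group alone, so these counts are descriptions. Kcnj13, which encodes the weak rectifier Kir7.1, had 28 and 36 counts after saline and 6 and 5 after cisplatin (log2 fold change -2.72). Kcnip2, a Kv4 subunit, had 32 and 35 counts after saline and 12 and 17 after cisplatin, and Kcng1, a silent subunit, 14 and 28 against 0 and 5. Kcnq3, an M-current subunit, was the fourth gene that fell, with 12 and 13 against 5 and 7 counts.

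The 2 that rose were Kcnk3, the acid-sensitive leak channel TASK-1, with 7 and 8 counts after saline and 20 and 31 after cisplatin, and Kcna3, the Kv1.3 channel of lymphocytes and macrophages, with 2 and 1 against 13 and 17. In the same libraries 7 of 8 macrophage markers rose and 1, Csf1r, fell, with a summed level of 79.5 to 85.5 CPM after saline and 227 to 249 CPM after cisplatin, while 2 of 7 tested T cell markers rose and 1 fell. Their part in the Kcna3 counts was not tested. Kcna4 had 0 counts in every library, which allows up to 3 counts in each.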
